A study of Mus musculus with 12 samples.

Results

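A set of 10 genes of polyamine and arginine metabolism was followed in fibroblasts of mouse back skin during the first days of wound repair. They were taken by gene symbol, as the rows of the gene count table named Odc1, Azin1, Azin2, Amd1, Srm, Sms, Sat1, Arg1, Arg2 and Nos2, which are 10 of the 25239 genes in that table. The cells were live CD45- CD31- SCA1+ cells, sorted from liberase-digested back skin of wild-type male C57BL/6 mice aged 8 weeks, and the labels name no transgene or treatment other than the wound. Full-thickness punch wounds of 4 mm were sampled 16 h, 1.5 d or 3 d after wounding, and unwounded skin (NW) was sampled beside them, with 3 different mice in each of the 4 groups. RNA from each mouse was made into full-length cDNA, in which transcripts are copied by template switching and amplified, and sequenced in bulk. The sort takes SCA1+ cells only, so fibroblasts without that surface protein were not sampled.

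Polyamines are small, positively charged molecules that bind RNA and DNA and are needed for growth and translation. Arginase cuts arginine into urea and ornithine, ornithine decarboxylase turns ornithine into putrescine, and spermidine synthase and spermine synthase lengthen it with aminopropyl groups taken from decarboxylated S-adenosylmethionine. Nitric oxide synthase uses the same arginine to make nitric oxide and citrulline. In skin wounds, arginase and inducible nitric oxide synthase are best known from macrophages, and ornithine decarboxylase is a textbook growth-induced enzyme.

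Each library held between 26389453 and 43493475 counted fragments. Levels are given as CPM, counts divided by library size, scaled for library composition by the trimmed mean of M values (TMM), and 3 counts correspond to between 0.0664 and 0.122 CPM in a library. The 10 fibroblast markers, among them Pdgfra and Ly6a, which encodes SCA1, were all detected in every group, with sums of 83774 to 184906 CPM in NW, 40159.9 to 105379 CPM at 16 h, 86627 to 108468 CPM at 1.5 d and 118211 to 237323 CPM at 3 d. Keratinocyte transcripts were also present. The 15 keratinocyte markers summed to 18581 to 34500 CPM in NW, 7856 to 13690.4 CPM at 16 h, 3916 to 6995 CPM at 1.5 d and 899.8 to 13041 CPM at 3 d. Of these 15 markers, 5 fell and 1 rose at 16 h against NW, 10 fell and 1 rose at 1.5 d, and 8 fell and 1 rose at 3 d. The 7 endothelial markers and the 7 pericyte and smooth muscle markers summed to at most 109 CPM in every library, and both sums were lower in each 16 h library than in any NW library. These marker levels moved with the wound groups, and their part in the changes described here was not tested.

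All but Amd1, 9 of the 10 genes, passed the filter on low counts, and 4 differed among the 4 groups. In the F test of edgeR's quasi-likelihood fit, with Benjamini-Hochberg adjustment over the 14901 genes tested, the adjusted p was 0.000349 for Azin2, 0.000957 for Nos2, 0.00267 for Srm and 0.00373 for Odc1. It was 0.0944 for Sat1, 0.135 for Arg1, 0.212 for Sms, 0.354 for Azin1 and 0.693 for Arg2. Among all genes tested, 29.7% passed the same test. At 16 h against NW, 2 genes rose (Odc1 and Srm) and 1 fell (Azin2), where 24.7% of all tested genes were called, 13.5% upwards and 11.2% downwards. At 1.5 d against NW, 5 rose (Odc1, Azin2, Srm, Arg1 and Nos2) and 0 fell, where 24.5% of all tested genes were called, 13.7% upwards and 10.8% downwards. At 3 d against NW, 3 rose (Azin2, Srm and Nos2) and 0 fell, where 21.1% of all tested genes were called, 12.0% upwards and 9.15% downwards. The median log2 change of the 9 genes was -0.44 at 16 h, 1.14 at 1.5 d and 0.49 at 3 d, beside medians of -0.04, 0.01 and 0.00 over all genes tested. All of these comparisons share the same 3 NW libraries.

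**Figure D1:**
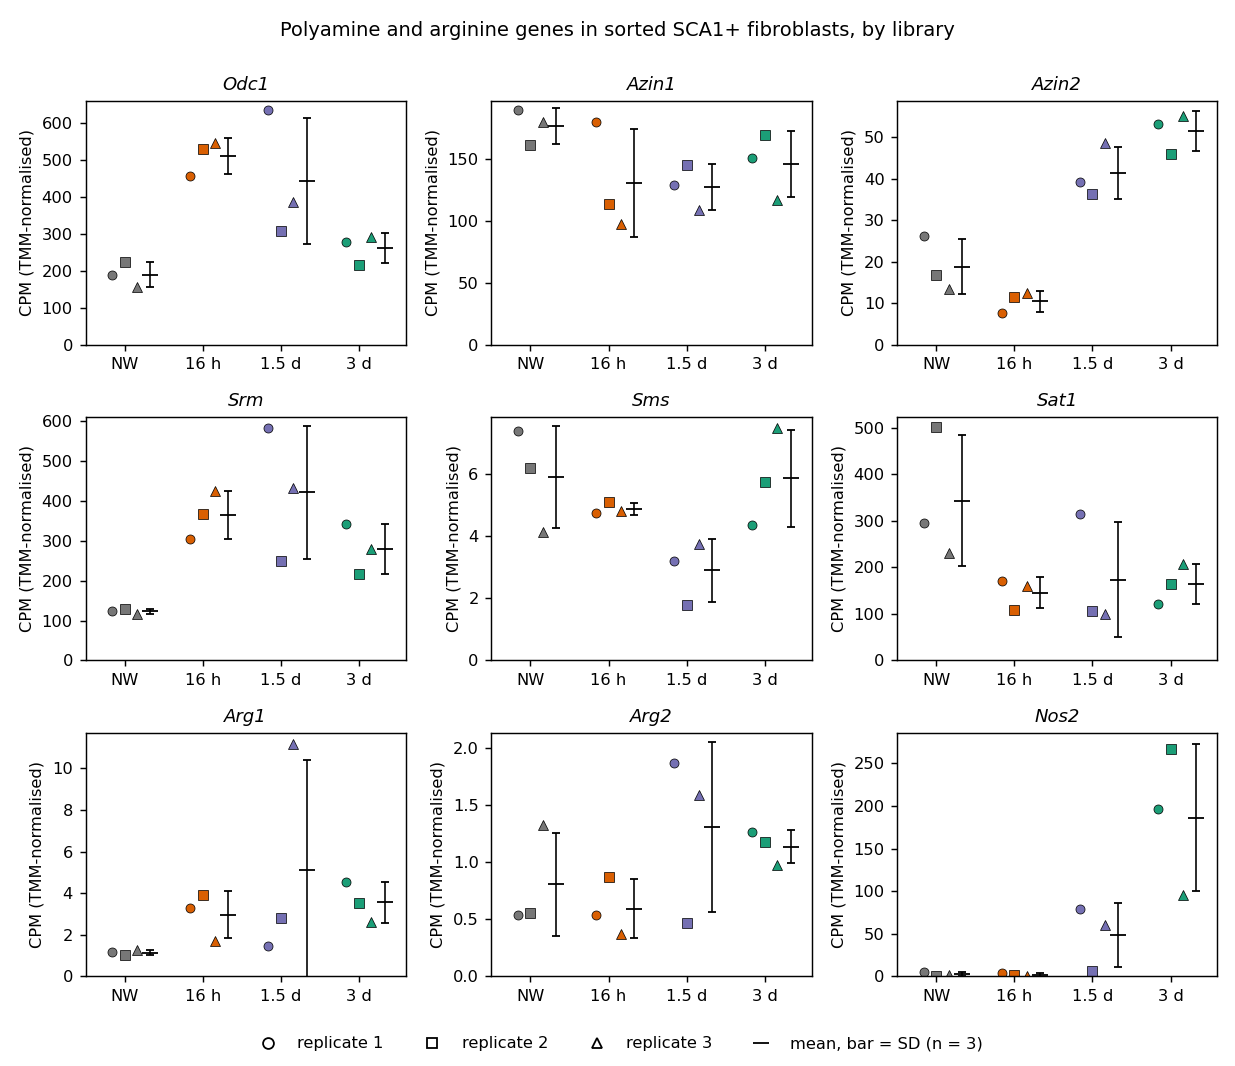
TMM-scaled CPM of the 9 tested genes (vertical axis, own scale per panel) in NW, 16 h, 1.5 d and 3 d libraries; points are single mice, n = 3 per group, beside the mean ± SD, whose lower end for Arg1 at 1.5 d is cut at 0. Odc1 is at 454 to 544 CPM in the 16 h libraries, above every NW library, and Nos2 is at 95.8 CPM or more in every 3 d library.

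Odc1, the ornithine decarboxylase that makes putrescine and the classical control point of the pathway (chromosome 12, 17544873 to 17551502, plus strand, mm10), was raised early after wounding. Its level was 189, 222 and 155 CPM in the NW mice, 454, 529 and 544 CPM at 16 h, 634, 306 and 386 CPM at 1.5 d, and 276, 215 and 291 CPM at 3 d. All 16 h and 1.5 d libraries lay above all NW libraries, while the 3 d libraries overlapped with NW. Odc1 rose at 16 h by 1.43 log2 units (SE 0.265, adjusted p = 0.00207, edgeR) and at 1.5 d by 1.23 (SE 0.263, adjusted p = 0.00499), both against NW. The mean was 509 ± 48.0 CPM at 16 h against 189 ± 33.8 CPM in NW (SD, n = 3 each). At 3 d against NW the log2 change was 0.47 (SE 0.260, adjusted p = 0.228), which did not pass. In these bulk libraries, fewer cells of a type and less RNA per cell cannot be told apart.

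By 3 d the Odc1 level was lower than at 16 h, with means of 261 ± 40.5 CPM at 3 d and 509 ± 48.0 CPM at 16 h (SD, n = 3 each). The log2 change was -0.97 (SE 0.262, adjusted p = 0.0358, edgeR), and every 3 d library lay below every 16 h library. The call was lost when any 1 of the 6 libraries of these groups was left out, with log2 changes of -1.05 to -0.84 and a highest adjusted p of 0.117 without 3 d replicate 2. It was also lost with a replicate block, at an adjusted p of 0.0598.

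The promoter of Odc1 is shown because Odc1 is the member with a promoter window that rose at 16 h. RefSeq promoter windows (GRCm38.p6, the same assembly as mm10) were found for 4 of the 10 genes, namely Odc1, Amd1, Sms and Sat1. The 250 bases before the Odc1 start site (chr12:17544623-17544872, plus strand, 5′ to 3′) are written with matches to GGGCGG or its reverse complement in capitals.
Odc1: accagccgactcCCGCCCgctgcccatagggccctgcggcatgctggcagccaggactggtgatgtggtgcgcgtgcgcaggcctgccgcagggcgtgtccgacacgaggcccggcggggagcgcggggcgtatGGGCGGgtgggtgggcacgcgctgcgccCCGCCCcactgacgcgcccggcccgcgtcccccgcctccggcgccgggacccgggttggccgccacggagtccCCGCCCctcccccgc
This stretch holds 200 G or C among its 250 bases, and 4 matches to GGGCGG, the core of a GC box, which begin at -238, -116, -88 and -15 from the start site. A match to GGGCGG on either strand occurs in 35.7% of the 32851 RefSeq windows of the same 300-base length. The window has 0 matches to CACGTG, the E-box bound by MYC and related factors, to TGANTCA, the AP-1 motif, and to TATAAA, which occur in 7.15%, 7.81% and 13.6% of all windows. GGGCGG was added to the search after the sequences had been seen, and a match is a description of letters and not of binding.

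Srm, spermidine synthase, which adds an aminopropyl group to putrescine (chromosome 4, 148591513 to 148594619, plus strand), was raised at all 3 times. Its level was 124, 128 and 117 CPM in NW, 303, 366 and 425 CPM at 16 h, 581, 250.1 and 431 CPM at 1.5 d, and 341, 216 and 278 CPM at 3 d. Each wound library lay above all 3 NW libraries, which differed little among themselves, and the 1.5 d libraries spanned the widest range. Srm rose against NW by 1.57 log2 units at 16 h (SE 0.284, adjusted p = 0.00182), by 1.77 at 1.5 d (SE 0.285, adjusted p = 0.000956) and by 1.18 at 3 d (SE 0.281, adjusted p = 0.0102), in edgeR's test. No comparison of Srm between the wound times passed. The approximate 95% interval of its 3 d against 16 h log2 change ran from -0.93 to 0.15. No 75-base stretch of Srm occurs in the GENCODE M21 transcripts of another gene, whereas 30.5% of the 75-base stretches of Odc1 occur in transcripts of other genes, mostly processed pseudogenes, so part of the Odc1 fragments could have been left uncounted. The read length is not stated, and 75 bases was assumed. Fragments were counted as read pairs, so a share of stretches is not a share of fragments.

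Uncounted Odc1 fragments would lower its per-length ratio to Srm, since 30.5% of Odc1 75-base stretches occur in transcripts of other genes. That ratio was below 1 in all 12 libraries. It was 0.690 to 0.907 in the NW libraries, 0.668 to 0.781 at 16 h, 0.467 to 0.639 at 1.5 d and 0.422 to 0.546 at 3 d. Every 3 d and 1.5 d library was thus below every 16 h and NW library. The log2 CPM of Odc1 and Srm had a Pearson r of 0.899 over the 12 libraries, given as a description, since the libraries come in 4 groups.

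The other synthesis enzymes gave no call in edgeR's test. Sms, spermine synthase (chromosome X, 157443851 to 157492287, minus strand), was low, at 7.40, 6.18 and 4.14 CPM in NW, 4.74, 5.09 and 4.80 CPM at 16 h, 3.20, 1.77 and 3.74 CPM at 1.5 d, and 4.35, 5.76 and 7.48 CPM at 3 d. The 1.5 d libraries lay below all other libraries, with a log2 change against NW of -1.02 (SE 0.420, adjusted p = 0.0924, edgeR). DESeq2 called that difference, with a log2 change of -1.04 and an adjusted p of 0.0409. Copies of Sms sequence in pseudogenes hold 27.6% of its 75-base stretches. Amd1, which makes the decarboxylated S-adenosylmethionine that both synthases need (chromosome 10, 40287458 to 40302188, minus strand), had 1 count in NW replicate 2 and 0 in the other 11 libraries. Of its exon bases, 99.7% are annotated also as Amd2, which had 0 counts in every library, and the counting left out fragments that overlap several genes. The near absence of Amd1 counts therefore gives no level for that enzyme.

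Sms has 2 RefSeq start sites, and the window of the upstream one is shown because it holds the single CACGTG match among the windows found, those of Odc1, Amd1, Sms and Sat1. Its 250 bases before the start (chrX:157492288-157492537, minus strand, 5′ to 3′) have the match in capitals, beginning at -196.
Sms: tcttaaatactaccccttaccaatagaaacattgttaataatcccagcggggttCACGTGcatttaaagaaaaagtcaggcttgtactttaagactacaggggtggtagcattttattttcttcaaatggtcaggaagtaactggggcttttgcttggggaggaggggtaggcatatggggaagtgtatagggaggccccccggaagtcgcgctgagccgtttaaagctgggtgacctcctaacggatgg
The other Sms window holds 0 CACGTG matches and 4 GGGCGG matches, some of them overlapping, while Amd1 holds 0 and 1.

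The antizyme inhibitors Azin1 and Azin2, proteins that resemble ornithine decarboxylase but bind its inhibitor antizyme instead of making putrescine, gave different calls, and the difference between them was not tested. Azin2 (chromosome 4, 128930233 to 128962455, minus strand) was at 26.3, 16.8 and 13.3 CPM in NW, 7.57, 11.5 and 12.3 CPM at 16 h, 39.3, 36.4 and 48.6 CPM at 1.5 d, and 53.3, 45.9 and 55.1 CPM at 3 d. The 16 h libraries were below every NW library, and the 1.5 d and 3 d libraries above every NW library. Azin2 rose at 1.5 d by 1.14 log2 units (SE 0.281, adjusted p = 0.0107) and at 3 d by 1.45 (SE 0.283, adjusted p = 0.00332), both against NW in edgeR's test.

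Against the 16 h mice, Azin2 rose by 1.98 log2 units at 1.5 d (SE 0.288, adjusted p = 0.00431) and by 2.30 at 3 d (SE 0.291, adjusted p = 0.000487), in edgeR's test. The means were 41.4 ± 6.35 CPM at 1.5 d and 51.4 ± 4.85 CPM at 3 d, against 10.5 ± 2.55 CPM at 16 h (SD, n = 3 each). At 1.5 d against 16 h, Azin2 and Nos2 were the 2 genes called, where 2.86% of all tested genes were called and 2.39% rose. At 3 d against 16 h, Azin2 and Nos2 rose and Odc1 fell, where 9.53% of all tested genes were called, 5.86% upwards and 3.67% downwards. The fall of Azin2 at 16 h against NW was the weakest of its calls, with a log2 change of -0.85 (SE 0.281, adjusted p = 0.0430). That call was lost in 14 of 20 alternative settings, among them leaving out any 1 library except NW replicate 3 and 16 h replicate 3. The adjusted p lay between 0.0176 and 0.225 over the settings, was highest without NW replicate 1, when the log2 change was -0.48, and was 0.0818 with a replicate block.

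Azin1 (chromosome 15, 38487430 to 38519266, minus strand) was at 190, 161 and 180.0 CPM in NW, 180.2, 114 and 97.8 CPM at 16 h, 129, 145 and 109 CPM at 1.5 d, and 151, 169 and 117 CPM at 3 d. The 1.5 d libraries lay below all NW libraries and the other wound groups overlapped with NW. Its log2 change against NW was -0.44 at 16 h, -0.47 at 1.5 d and -0.28 at 3 d, with adjusted p of 0.203, 0.173 and 0.452 (edgeR). Without 16 h replicate 1, the change at 16 h was -0.74 and passed, with an adjusted p of 0.0465. The unadjusted 95% interval at 1.5 d ran from -0.94 to -0.0015, and 5.53% of the 75-base stretches of Azin1 occur in an antisense transcript, which unstranded counting cannot tell apart. Per kilobase of exon, Azin1 averaged 34.2 ± 2.81 CPM and Azin2 6.72 ± 2.40 CPM in NW, and at 3 d Azin1 averaged 28.1 ± 5.16 CPM and Azin2 18.4 ± 1.73 CPM (SD, n = 3 each).

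**Figure D2:**
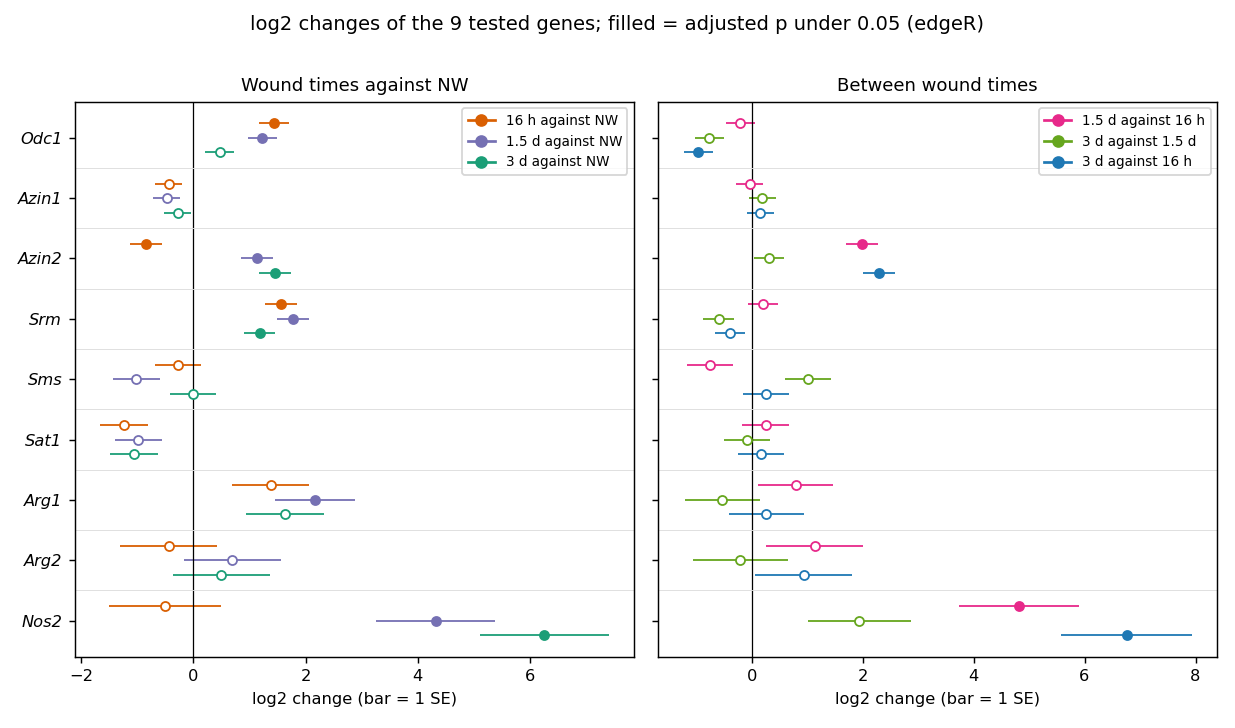
Log2 change of the 9 tested genes at 16 h, 1.5 d and 3 d against NW (left) and between wound times (right), from edgeR over all 12 libraries; bars are 1 SE and filled points passed an adjusted p of 0.05. Against NW, Srm lies at 1.18 to 1.77 at all 3 times, Azin2 at -0.85 at 16 h and 1.45 at 3 d, and Nos2 at 6.26 at 3 d.

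Sat1, the acetyltransferase that marks spermidine and spermine for export or breakdown (chromosome X, 155213126 to 155216449, minus strand), had lower mean values after wounding without passing edgeR's test. Its level was 296, 501 and 231 CPM in NW, 170.2, 107 and 160.0 CPM at 16 h, 315, 106 and 99.5 CPM at 1.5 d, and 122, 163 and 207 CPM at 3 d. All 16 h and 3 d libraries lay below all NW libraries, while 1.5 d replicate 1 lay within the NW range. The log2 change against NW was -1.23 (SE 0.428, adjusted p = 0.0511) at 16 h, -0.98 (SE 0.426, adjusted p = 0.112) at 1.5 d and -1.06 (SE 0.427, adjusted p = 0.0949) at 3 d, in edgeR's test.

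The Sat1 differences lay close to the threshold. At 16 h against NW they passed in 9 of 20 alternative settings, among them the DESeq2 test with an adjusted p of 0.0121. They passed without NW replicate 3 (adjusted p = 0.0440) or any 1 of the 1.5 d libraries (lowest adjusted p 0.0108, without replicate 1), and the log2 change was -0.85 (adjusted p = 0.195) without NW replicate 2. That library had both the highest Sat1 level, at 501 CPM, and the highest keratinocyte sum, at 34500 CPM. Other libraries differed: NW replicate 3 had 231 CPM of Sat1 at a keratinocyte sum of 28884 CPM. In 1.5 d replicate 1, Sat1 was at 315 CPM and the sum at 6264 CPM. The part of keratinocyte RNA in the Sat1 values was not tested. Without 1.5 d replicate 1, the log2 change at 1.5 d against NW was -1.73, with an adjusted p of 0.00559. Leaving the same library out also moved 3 d against NW to an adjusted p of 0.0250. With all libraries, limma-voom called Sat1 at 1.5 d against NW (-1.13, adjusted p = 0.0477) and DESeq2 at 3 d against NW (-1.06, adjusted p = 0.0439).

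The Sat1 promoter is shown beside that of Odc1 because the per-length order of both genes was the other way round at 16 h than in NW. Its 250 bases before the start site (chrX:155216450-155216699, minus strand, 5′ to 3′) have matches to GGGCGG or its reverse complement in capitals, which begin at -72 and -6.
Sat1: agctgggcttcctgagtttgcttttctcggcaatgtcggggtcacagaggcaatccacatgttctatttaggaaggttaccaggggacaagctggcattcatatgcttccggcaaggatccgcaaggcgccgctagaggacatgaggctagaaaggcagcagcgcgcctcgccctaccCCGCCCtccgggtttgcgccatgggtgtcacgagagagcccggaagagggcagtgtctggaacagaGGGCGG
The stretch is 59.6% G or C, against 80% in Odc1, and its window has 0 matches to the other 3 motifs.

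On the per-length scale, Sat1 was the most abundant of the 9 tested transcripts in NW and was overtaken by Srm at every wound time. In NW it averaged 268 ± 110.1 CPM per kilobase of exon (SD, n = 3), followed by Srm at 92.6 ± 4.21 and Odc1 at 74.1 ± 13.3. At 16 h the order was Srm at 275 ± 45.8, Odc1 at 199.9 ± 18.9 and Sat1 at 114 ± 26.4 CPM per kilobase. The ratio of Odc1 to Sat1 per kilobase was 1.34 to 2.47 in the 16 h libraries, against 0.223 to 0.336 in the NW libraries, and the groups did not overlap. It was 1.01 to 1.95 at 1.5 d and 0.661 to 1.14 at 3 d, above every NW library as well. At 3 d, Sat1 at 128 ± 33.2 and Odc1 at 102 ± 15.9 CPM per kilobase did not differ beyond their spread.

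**Figure D3:**
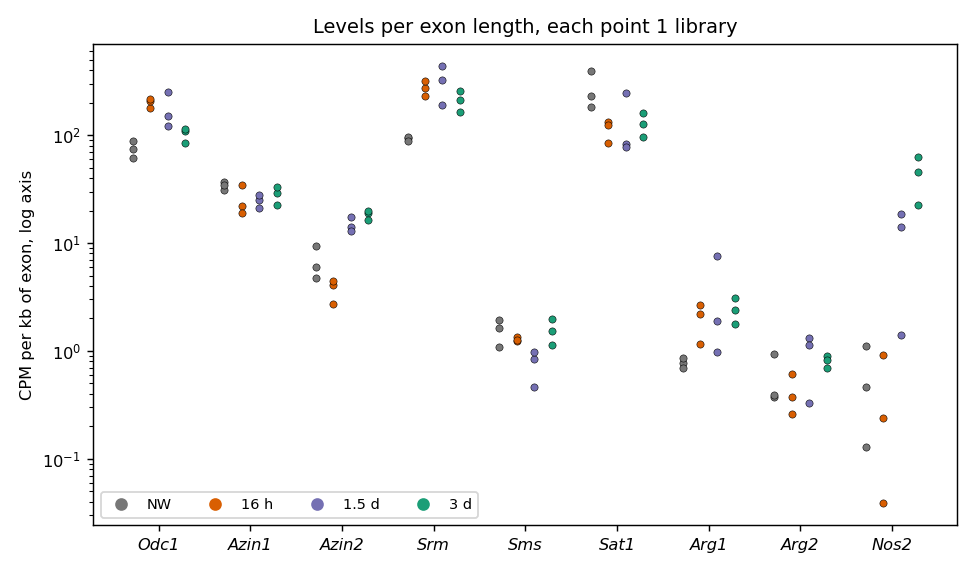
TMM-scaled CPM per kilobase of exon on a log axis for the 9 tested genes; each point is 1 library of the NW, 16 h, 1.5 d or 3 d group (3 mice each). By group mean, Sat1 leads in NW at 268, Srm leads at the 3 wound times at 209.7 to 317, and Nos2 averages 43.4 at 3 d.

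Nos2, the inducible nitric oxide synthase (chromosome 11, 78920787 to 78960226, plus strand), had the largest change of the 9 tested genes. Its level was 4.81, 0.559 and 1.99 CPM in NW, 3.97, 1.02 and 0.168 CPM at 16 h, 79.1, 6.06 and 60.6 CPM at 1.5 d, and 196, 267 and 95.8 CPM at 3 d. NW and 16 h libraries overlapped, every 1.5 d library lay above them, and every 3 d library lay above every 1.5 d library. Nos2 rose at 1.5 d by 4.32 log2 units (SE 1.06, adjusted p = 0.0101) and at 3 d by 6.26 (SE 1.15, adjusted p = 0.00226), both against NW in edgeR's test. At 16 h against NW the log2 change was -0.50 (SE 0.998, adjusted p = 0.755).

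Against 16 h, Nos2 rose by 4.82 log2 units at 1.5 d (SE 1.08, adjusted p = 0.0329) and by 6.76 at 3 d (SE 1.18, adjusted p = 0.00348), in edgeR's test. The mean was 186 ± 86.1 CPM at 3 d against 48.6 ± 38.0 CPM at 1.5 d (SD, n = 3 each), a log2 change of 1.94 (SE 0.933, adjusted p = 0.652) that did not pass. NW replicate 1 held the highest NW value, and without it the log2 changes against NW were 5.26 at 1.5 d and 7.21 at 3 d. The 1.5 d against 16 h call was lost in 6 of 20 alternative settings, with adjusted p of 0.136 without 16 h replicate 2, 0.0859 without 16 h replicate 3, 0.0817 without 1.5 d replicate 1 and 0.0781 without 1.5 d replicate 3. Without 16 h replicate 1 the changes against 16 h were 6.32 at 1.5 d and 8.26 at 3 d. The 3 d calls of Nos2 held in all 20 settings, and the 1.5 d against NW call was lost in limma-voom alone, at an adjusted p of 0.0698.

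Since Nos2 is also made by macrophages and neutrophils, their markers are given beside it. The sum of 15 macrophage and monocyte markers was 50.9 to 115 CPM in NW, 60.6 to 118 CPM at 16 h, 73.7 to 119 CPM at 1.5 d and 91.7 to 124 CPM at 3 d. Csf1r, the receptor for the macrophage growth factor CSF1, averaged 60.1 CPM in NW and 48.8 CPM at 3 d and was the highest of the list in NW. Lyz2 averaged 3.32 CPM in NW and 12.6 CPM at 3 d, and Cd14 9.25 CPM in NW and 22.6 CPM at 3 d. Of the 15, 7 rose and 1 fell at 16 h against NW, 7 rose and 0 fell at 1.5 d, and 6 rose and 0 fell at 3 d. In NW, 5 of them (Fcgr1, C1qc, Mrc1, Ms4a7 and Chil3) had 0 counts. The highest single-library level of Ptprc, which encodes the CD45 used to gate leukocytes out, was 8.70 CPM, and that of Adgre1, which encodes the macrophage protein F4/80, was 3.12 CPM. From NW to 3 d, the mean of Ptprc went from 0.852 to 1.56 CPM and that of Adgre1 from 0.0855 to 1.60 CPM. The sum of 9 neutrophil markers was 0.493 to 2.78 CPM in NW, 9.73 to 21.8 CPM at 16 h, 5.67 to 9.66 CPM at 1.5 d and 1.55 to 5.78 CPM at 3 d. Of the 6 neutrophil markers tested, 4 rose at 16 h, 3 at 1.5 d and 1 at 3 d against NW, and 5 of the 9 (Csf3r, Cxcr2, Retnlg, Ly6g and Ngp) had 0 counts in NW. The neutrophil sum was highest at 16 h, when Cxcr2 had the largest mean of the list, 8.81 CPM. Retnlg, Mmp8 and Camp of the same list had their highest means at 1.5 d. The part of leukocyte RNA in the Nos2 values was not tested.

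Arginases, which feed ornithine into the pathway, were low at every time. Arg1, the cytosolic form (chromosome 10, 24915207 to 24927470, minus strand), was at 1.14, 1.02 and 1.26 CPM in NW, 3.27, 3.92 and 1.71 CPM at 16 h, 1.43, 2.81 and 11.2 CPM at 1.5 d, and 4.56, 3.53 and 2.60 CPM at 3 d. All 9 wound libraries lay above all 3 NW libraries, but they differed widely within groups. Arg1 rose at 1.5 d against NW by 2.17 log2 units (SE 0.705, adjusted p = 0.0395, edgeR). Without 1.5 d replicate 3, the highest library, the log2 change was 0.90 (adjusted p = 0.366). The call was lost in 10 of 20 alternative settings, among them limma-voom, the 2-group fit, leaving out any 1 NW library (highest adjusted p 0.0987), 16 h replicate 1 (0.0505) or 2 (0.0511), or 3 d replicate 2 (0.0528), and the replicate block (0.0939). At 16 h and 3 d the log2 change against NW was 1.37 (adjusted p = 0.166) and 1.64 (adjusted p = 0.114).

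Arg2, the mitochondrial arginase (chromosome 12, 79130788 to 79156301, plus strand), was at 0.369 to 1.87 CPM over all 12 libraries. Its groups overlapped in each comparison with NW, and its log2 change was -0.44, 0.69 and 0.49 at 16 h, 1.5 d and 3 d. The approximate 95% interval at 3 d was -1.21 to 2.19. Of its exon bases, 20.1% are shared with Vti1b, so part of its fragments could have been left uncounted. Per kilobase of exon, the ratio of Nos2 to Arg1 was 1.44, 0.189 and 0.543 in NW, 0.417, 0.0899 and 0.0337 at 16 h, 19.0, 0.742 and 1.87 at 1.5 d, and 14.8, 26.0 and 12.7 at 3 d. The 3 d libraries lay above all NW and 16 h libraries, and 1.5 d replicate 1 lay within their range.

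**Figure D4:**
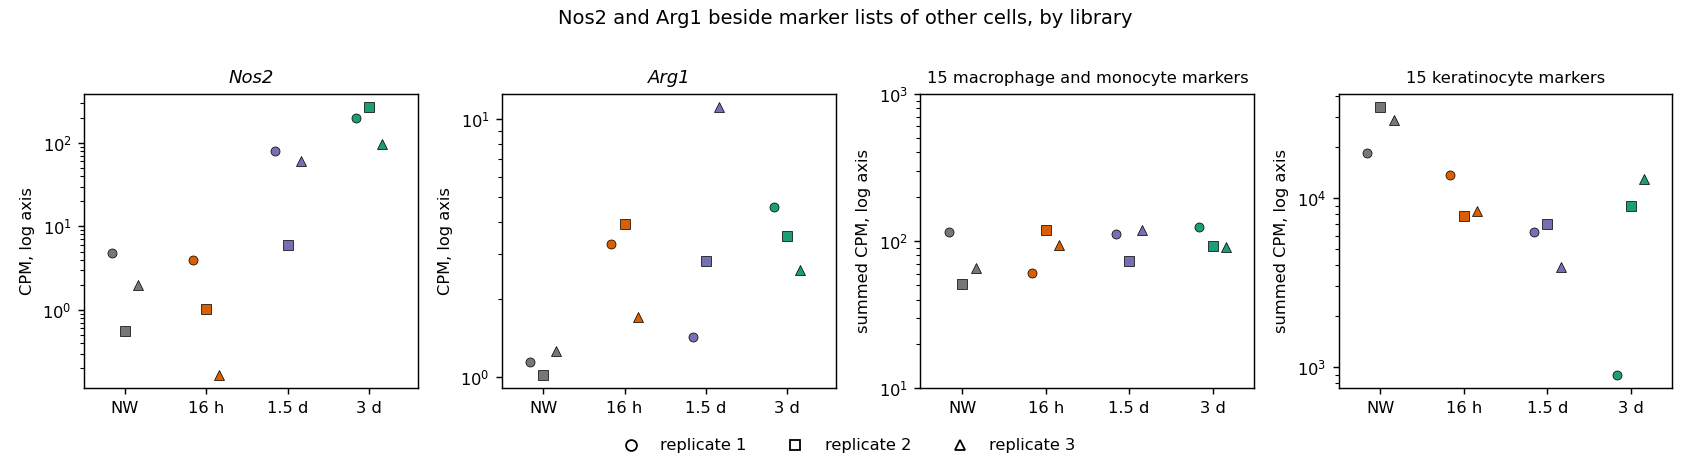
Nos2 and Arg1 levels in TMM-scaled CPM beside the summed CPM of 15 macrophage and monocyte markers and of 15 keratinocyte markers, all on log axes, for each NW, 16 h, 1.5 d and 3 d library (3 mice each). Nos2 reaches 95.8 to 267 CPM at 3 d, where the macrophage sum is 91.7 to 124 CPM, and the keratinocyte sum is highest in NW. The macrophage sum includes Csf1r, with means of 60.1 CPM in NW and 48.8 CPM at 3 d, while 6 of the 15 markers rose and 0 fell at 3 d against NW.

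Between 3 d and 1.5 d, 0 of the 9 genes were called by edgeR, DESeq2 or limma-voom, where 0.141% of all tested genes were called by edgeR, 0.101% upwards and 0.0403% downwards. Before adjustment, 2 of them were under 0.05 in edgeR's fit over all genes. Odc1 had a log2 change of -0.76 with an adjusted p of 0.435, and Sms one of 1.01 with an adjusted p of 0.566.

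The wider pathway was read from 5 lists of 36 genes, of which 29 could be tested. Against NW, 8 rose and 4 fell at 16 h, 6 rose and 2 fell at 1.5 d, and 4 rose and 0 fell at 3 d. Among all genes tested, 13.5% rose and 11.2% fell at 16 h, 13.7% rose and 10.8% fell at 1.5 d, and 12.0% rose and 9.15% fell at 3 d. In the F test 11 of the 29 were called, where 29.7% of all genes were. The median log2 change of the 29 genes was -0.02, 0.36 and 0.13 at these times, beside -0.04, 0.01 and 0.00 over all genes. Of the 5 tested genes that limit or oxidise polyamines, edgeR called 0 at each time, with 0, 1 and 2 at an unadjusted p under 0.05 at 16 h, 1.5 d and 3 d, DESeq2 called 0, 1 and 1, and limma-voom called 0 at each. In edgeR's F test over the 4 groups, the adjusted p was 0.0953 for Oaz2, an antizyme, 0.0631 for Sat2, an enzyme related to Sat1, and 0.443 for Paox, an oxidase of acetylated polyamines. Oaz1, the main antizyme, named after its values were seen, averaged under 0.335 CPM in every group, but 89.5% of its exon bases are shared with Oaz1-ps, so these counts do not give its level.

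Among the 7 carriers of polyamines and arginine, 2 rose and 1 fell at 16 h, and 1 rose at each later time, where 13.5% of all genes rose and 11.2% fell at 16 h, and 13.7% and 12.0% rose at 1.5 d and 3 d. A count of 1 of 7 is close to those later shares. Slc7a2, a cationic amino acid carrier that imports arginine, rose at all 3 times against NW, by 2.18 (adjusted p = 0.0122), 1.90 (adjusted p = 0.0226) and 2.48 (adjusted p = 0.00729) log2 units in edgeR's test. Its mean level was 36.6 CPM at 16 h, 30.2 CPM at 1.5 d and 45.1 CPM at 3 d, against 8.11 CPM in NW. Without NW replicate 1 these changes were larger, at 3.21, 2.91 and 3.49, and the 1.5 d call was lost without NW replicate 2 or 3 or 1.5 d replicate 1 or 3 (highest adjusted p 0.0871). The polyamine-transporting ATPases moved in opposite directions at 16 h, with Atp13a3 up by 1.38 (adjusted p = 0.00927) and Atp13a2, of the lysosome, at -1.62 (adjusted p = 0.0107).

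The hypusine pathway, which uses spermidine to modify the translation factor EIF5A, had 3 of 4 genes up at 16 h, 1 at 1.5 d and 0 at 3 d, where 13.5%, 13.7% and 12.0% of all genes rose. In the edgeR F test over the 4 groups only Dohh of the 4 passed (adjusted p = 0.0246), with adjusted p of 0.0510 for Eif5a and 0.0951 for Dhps. Eif5a averaged 2083 CPM at 16 h against 952 CPM in NW, a log2 change of 1.13 (adjusted p = 0.0188, edgeR). Dhps, the first enzyme of the modification, rose by 0.88 (adjusted p = 0.0410) and Dohh, the second, by 0.98 (adjusted p = 0.0209) at 16 h and 1.02 (adjusted p = 0.0172) at 1.5 d. Of the exon bases of Dhps, 9.53% are shared with Wdr83, so its count may be incomplete. Dohh shares 45.3% of its 75-base stretches with Gm48551 of GENCODE M21, but 0 exon bases with another gene in the annotation used for counting. Whether its count is incomplete was not tested. For all 3 genes the 16 h call was lost without NW replicate 1 or 3 or 16 h replicate 3. Eif5a also lost its 16 h call without 16 h replicate 2, and Dhps without 16 h replicate 1 or 2 or with the replicate block. Over these settings the adjusted p was up to 0.0611 for Eif5a, 0.0568 for Dohh and 0.116 for Dhps. The Dohh call at 1.5 d was lost without NW replicate 1 or 3 or 1.5 d replicate 1 (highest adjusted p 0.0763).

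In S-adenosylmethionine supply and methionine salvage, 2 of 7 tested genes rose and 1 fell at 16 h and at 1.5 d, and 1 rose at 3 d. Of all genes tested, 24.7% were called at 16 h, 24.5% at 1.5 d and 21.1% at 3 d, and the count at 3 d is near that share. Mtap, which clears the methylthioadenosine left by both aminopropyl transfers, rose by 1.51 (adjusted p = 0.000703), 1.06 (adjusted p = 0.00587) and 1.14 (adjusted p = 0.00440) at the 3 times in edgeR's test. Its means were 73.1 CPM at 16 h, 53.3 CPM at 1.5 d and 56.5 CPM at 3 d, against 25.6 CPM in NW. Enoph1, a later salvage enzyme, rose by 0.96 at 16 h and 0.76 at 1.5 d (adjusted p = 0.0122 and 0.0344). Mat2b, a regulatory subunit of methionine adenosyltransferase, fell by 0.71 and 0.84 at these times (adjusted p = 0.0308 and 0.0136). The Mtap calls held in all 20 alternative settings, while Enoph1 at 1.5 d and Mat2b at 16 h each lost theirs in 9, without any 1 NW library among others (adjusted p up to 0.134 and 0.124). Mat2b at 1.5 d lost its call without 1.5 d replicate 3 (adjusted p = 0.0661).

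Of the other arginine and ornithine enzymes, 1 of 6 tested rose and 2 fell at 16 h, 2 rose and 1 fell at 1.5 d, and 2 rose at 3 d. The shares of all genes that rose and fell were 13.5% and 11.2% at 16 h, 13.7% and 10.8% at 1.5 d, and 12.0% and 9.15% at 3 d. Ddah1, which breaks down methylated arginines that inhibit nitric oxide synthases, averaged 328 ± 61.5 CPM at 16 h, 290 ± 25.9 CPM at 1.5 d and 262 ± 94.1 CPM at 3 d, against 37.9 ± 7.54 CPM in NW (SD, n = 3 each). Its log2 changes were 3.12, 2.94 and 2.79 (adjusted p = 2.6e-05, 3.61e-05 and 4.54e-05, edgeR), and all wound libraries lay above all NW libraries. Ddah2, the related enzyme, fell by 1.15 at 16 h (adjusted p = 0.00469) and by 0.94 at 1.5 d (adjusted p = 0.0129). Asl, which completes the recycling of citrulline to arginine, rose by 1.06 at 1.5 d (adjusted p = 0.00669) and 0.87 at 3 d (adjusted p = 0.0216), and Gamt, of creatine synthesis, named after its values were seen, fell by 1.73 at 16 h (adjusted p = 0.00683). Ass1, the partner of Asl, also named after its values were seen, was among the 7 genes not tested, and 95.2% of its exon bases are shared with Gm5424, so its counts give no level. The Ddah1 and Gamt calls held in all 20 settings, whereas Asl at 3 d lost its call without NW replicate 2 or 3 d replicate 1 or 3 (highest adjusted p 0.0735) and Ddah2 at 1.5 d without NW replicate 2 or 1.5 d replicate 3 (highest adjusted p 0.0650).

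**Figure D5:**
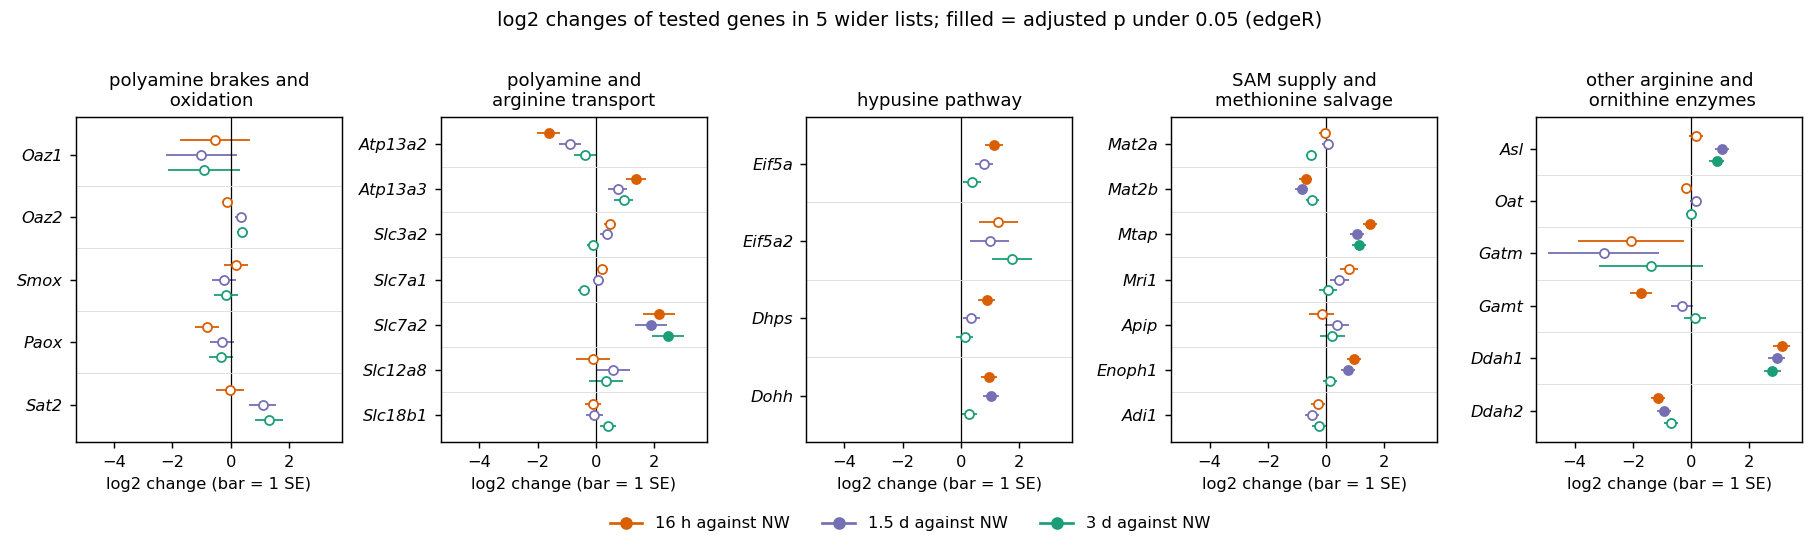
Log2 change at 16 h, 1.5 d and 3 d against NW for the 29 tested genes of the 5 wider lists (edgeR), grouped by list; bars are 1 SE and filled points passed an adjusted p of 0.05. Ddah1 lies at 2.79 to 3.12 and Slc7a2 at 1.90 to 2.48, while no gene of polyamine brakes and oxidation is filled; Oaz1 is drawn, but 89.5% of its exon bases are shared with Oaz1-ps.

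For the 4 genes that differed among the groups, the 3 genes with the most similar log2 CPM were read off by Pearson r over the 12 libraries, as a description of libraries that come in 4 groups. For Odc1 these were Tomm40 (r = 0.979), a channel of mitochondrial protein import, Cxcl1 (r = 0.978), a chemokine for neutrophils, and Wdr18 (r = 0.976). Cxcl1 averaged 3567 CPM at 16 h, 2656 CPM at 1.5 d and 1563 CPM at 3 d, against 1066 CPM in NW. For Srm they were Ctbp2 (r = 0.979), a transcriptional corepressor, Zpr1 (r = 0.976) and Mcfd2 (r = 0.973). For Azin2 they were Slc39a13 (r = 0.985), a zinc carrier, Plpp5 (r = 0.968) and Cenpn (r = 0.964), a centromere protein. For Nos2 they were Col5a2 (r = 0.962), a fibrillar collagen chain, Pdk1 (r = 0.952), a kinase that restrains pyruvate oxidation, and Fstl1 (r = 0.944), a secreted glycoprotein. Col5a2 averaged 951 CPM in NW, 691 CPM at 16 h, 1767 CPM at 1.5 d and 2809 CPM at 3 d.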

How the data were processed

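Per the file header, the authors deposited raw fragment counts per gene symbol, made with featureCounts 2.0.0 on read pairs over RefSeq exons of mm10, with no option for strand, multi-mapping fragments or fragments over several genes. The aligner settings and trimming are not given in the sources used here; STAR and SAMtools are named in the submitters' processing notes. Counts were analysed in R 4.3.3 with edgeR 4.0.16 (TMM, filterByExpr with a minimum count of 10, robust quasi-likelihood fit of all 12 libraries, Benjamini-Hochberg adjustment over 14901 genes, threshold 0.05). SE is the log2 change over the square root of F. Intervals are 1.96 SE wide on each side, an approximation that is narrower than edgeR's F test implies. CPM per kilobase used the exon length in the same table. The steps were tested on simulated data. Alternatives were TMM replaced by DESeq2 size factors or totals, DESeq2 1.42.0, limma-voom (limma 3.58.1), other filters, 2-group fits, a replicate block and leaving out each library. Members and lists were chosen with earlier results of these data known. All 10 members are named, and in each wider list up to 3 genes with the smallest F test p; Oaz1, Gamt and Ass1 fall outside that rule and were named after their values were seen. The mice differ per group, so the tests set group differences against the spread between libraries of different mice. Sequences are RefSeq promoters of GRCm38.p6. Protein sequences and the planned protein comparisons were not used here.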

Additional observations from a re-analysis of the deposited data

How the results depend on the processing

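Of the 16 member comparisons called, 11 kept their call in all 20 alternatives. Of their 320 alternative values, 38 missed the threshold and 0 changed sign. Of 760 alternative values of the 38 comparisons not called, 15 passed and 28 changed sign. The cause was not tested in any case.

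The number of members called at 1.5 d against 16 h, 2 in the reported fit, was 1 with limma-voom, 1 without a filter on low counts, and 1 to 2 when each library was left out in turn. Over all genes, these settings called 426, 420, 425 and 147 to 433. With the replicate block, 2 members were called at 16 h, 4 at 1.5 d and 3 at 3 d against NW, 2 at 1.5 d against 16 h, 0 at 3 d against 1.5 d, 2 at 3 d against 16 h and 4 in the F test. Libraries of the same replicate number had correlations of -0.172 to 0.168, and 2 of 12 correlated best with their own number, so the numbers do not pair the mice. In the wider lists, 15 of 26 calls held in all 20 alternatives, and DESeq2 called 9 genes at 3 d against NW where edgeR called 4.

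These signs turned among comparisons not called. With limma-voom the log2 change was 0.0057 for Azin1 at 1.5 d against 16 h, 0.021 for Sms at 3 d against NW, 0.11 for Sat1 and 0.053 for Arg2 at 3 d against 1.5 d. It was -0.0097 for Azin1 at 3 d against 16 h with total counts, 0.020 for Sms at 3 d against NW without a filter, and 0.040 for Sat1 at 3 d against 1.5 d with the replicate block. When each library was left out in turn, the log2 change at 1.5 d against 16 h ran from -0.55 to 0.0083 for Odc1, -0.20 to 0.27 for Azin1, -0.10 to 0.48 for Srm, -0.50 to 0.54 for Sat1 and -0.48 to 1.24 for Arg1. At 3 d against 16 h it ran from -0.011 to 0.46 for Azin1, -0.027 to 0.32 for Sat1 and -0.0096 to 0.52 for Arg1. At 3 d against 1.5 d it ran from -0.37 to 0.67 for Sat1, -0.97 to 0.74 for Arg1 and -0.60 to 0.14 for Arg2. Against NW it ran from -0.22 to 0.21 for Sms at 3 d, -0.83 to 0.15 for Arg2 at 16 h and -2.00 to 0.48 for Nos2 at 16 h. Groups of 3 mice, Arg2 levels under 2 CPM and pseudogene copies of Odc1, Sms and Amd1 limit these results.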
